A study of Mus musculus with 24 samples.

Results

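The genes described here encode proteins of gp130 signaling, namely the cytokine gene Lif, the receptor genes Il6st, Lifr, Osmr and Il6ra, the kinase gene Jak2, the transcription factor gene Stat3 and the inhibitor gene Socs3. They were chosen by name, as a ligand, receptor chains and signaling proteins of the same pathway, with earlier results of these data known. All 8 are among the 12091 genes with deposited values. The data are bulk RNA sequencing values of 24 mouse samples in 4 experiments, each with 3 control samples and 3 samples in which pleiotrophin (PTN), a secreted growth factor, was blocked or depleted. The study compared the groups to find genes that respond when PTN is inhibited in breast cancer models. 4T1 tumors grew from a BALB/c mammary carcinoma line implanted in BALB/c females of 8 wk of age, and MMTV-PyMT tumors arose in FVB/N mice in which the MMTV promoter drives the polyoma middle T antigen in the mammary gland. Tumor-bearing mice received C44, a control antibody, or 3B10, a monoclonal antibody against PTN, at 15 mg/kg and 2 times a week, in the MMTV-PyMT mice from 8 to 12 wk of age. E0771 is a C57BL/6 mammary adenocarcinoma line, and E0771-LG is a line derived from a lung metastasis of E0771 cells. Both lines were analysed in culture with a control vector that targets EGFP (E0771shCtrl and E0771-LGshCtrl) or with an shRNA against PTN (E0771shPTN and E0771-LGshPTN). All 4 of these populations were kept in 3 µg/ml puromycin for 6 wk.

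gp130, the product of Il6st, is the signal-transducing chain that receptors for interleukin 6, leukemia inhibitory factor, oncostatin M and related cytokines have in common, and each cytokine brings it together with a chain of its own. JAK kinases bound to the receptor tails then phosphorylate them, STAT3 docks there, is phosphorylated in turn and activates genes in the nucleus, among them Socs3, whose product binds the receptor and the kinase and dampens the signal. In the mammary gland this pathway is known for starting involution after lactation, and active STAT3 is common in breast tumors.

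In the MMTV-PyMT tumors and the cells, the deposited values were log2 counts of reads scaled to library size (log2 CPM) from which whole reads could be recovered. The 18 samples of this kind had between 15.63 and 21.12 M reads on genes, with a median of 18.25 M. In MMTV-PyMT tumors, C44 libraries held 18.76 to 19.25 M reads and 3B10 libraries 16.26 to 18.44 M, so every C44 library was the larger. The ranges overlapped in the cells, with 16.61 to 20.42 M in E0771shCtrl, 15.63 to 19.32 M in E0771shPTN, 17.30 to 19.59 M in E0771-LGshCtrl and 17.43 to 21.12 M in E0771-LGshPTN. The 4T1 values were log2 values that looked scaled for gene length, their depth is unknown, and they cannot be set beside the values of the other experiments. Differences are log2 fold changes of inhibited against control samples, fitted by limma within each experiment, and a gene passed the test when its p, adjusted for the number of genes tested in the experiment, was under 0.05. The samples of a group are biological replicates per the study, which does not say whether those of the cells were separate cultures, so a p measures the spread between these samples. A single shRNA construct was used, and the control and knockdown cells were selected as separate populations, so an effect of the knockdown and a difference between populations cannot be told apart.

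Ptn (ENSMUSG00000029838, chr6:36714929-36810220 in GRCm38), the target of the shRNA, was at 2.90, 2.18 and 2.28 log2 CPM in the E0771shCtrl samples and at −0.63, 0.25 and 0.53 in the E0771shPTN samples. In E0771-LG cells it was at 3.65, 4.51 and 3.74 log2 CPM with shCtrl and at 1.42, 0.98 and 1.38 with shPTN. In both lines the groups were far apart, with less Ptn in all 3 knockdown samples, as the labels say. The knockdown left 18.9% of the control level in the parental and 15.3% in the metastatic line, and the log2 fold changes differed between the lines by −0.30 (SE 0.48, limma adjusted p = 0.647). The E0771-LG cells started from a Ptn level 2.86-fold higher, a log2 difference of 1.51 (SE 0.34, limma adjusted p = 0.00152), so that E0771-LGshPTN cells, after knockdown, kept 35 to 56 reads of Ptn against 12 to 22 in E0771shPTN cells. In the tumors the antibody binds the protein, and Ptn transcripts check no label. They stood at 2.80, 2.73 and 3.42 log2 CPM in MMTV-PyMT tumors with C44 and at 3.28, 2.95 and 4.22 with 3B10. In 4T1 tumors the log2 values were −0.19, −0.65 and −0.12 with C44 and −0.76, 0.86 and 0.37 with 3B10, too low to be tested.

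With PTN depleted, the pathway genes that passed the test in the cells all fell, and of those that passed in a single line only Il6st had an effect whose difference between the lines passed the test, a gene that the study had picked from the same E0771-LG samples. In E0771 cells, Lif and Osmr fell, 2 of the 7 pathway genes tested, where 11.7% of the 10394 genes tested were lower, and 0 rose, where 8.89% were higher. In E0771-LG cells, Il6st, Osmr and Stat3 fell, 3 of 7, where 22.1% of the 10405 genes tested were lower, and 0 rose, where 24.3% were higher. The shPTN samples lay entirely below the shCtrl samples for 2 of 7 genes in E0771 cells, as for 22.5% of all genes tested, and entirely above them for 1, as for 16.8%. In E0771-LG cells they lay entirely below for 4 of 7 genes, which held for 26.7% of all genes tested, and entirely above for 0, which held for 30.5%. With 3 samples against 3, the smallest two-sided exact permutation p is 0.1, and each of these genes reached it. In the tumors 0 of the 8 genes passed the limma test with 3B10, as did 0% of all genes tested. At an unadjusted p under 0.05 there was 1 of the 8, Socs3, among the lower genes of 4T1 tumors, a group that held 3.10% of 11467 genes tested, and 0 among the higher genes (3.17%). In MMTV-PyMT tumors there was 1, Il6ra, among the higher genes, which were 1.52% of 11361, and 0 among the lower genes (1.18%). The median log2 fold change of the pathway genes tested was −0.34 in 4T1 tumors (0.01 over all genes), −0.14 in MMTV-PyMT tumors (0.05), −0.00 in E0771 cells (−0.03) and −0.42 in E0771-LG cells (0.05).

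**Figure D1:**
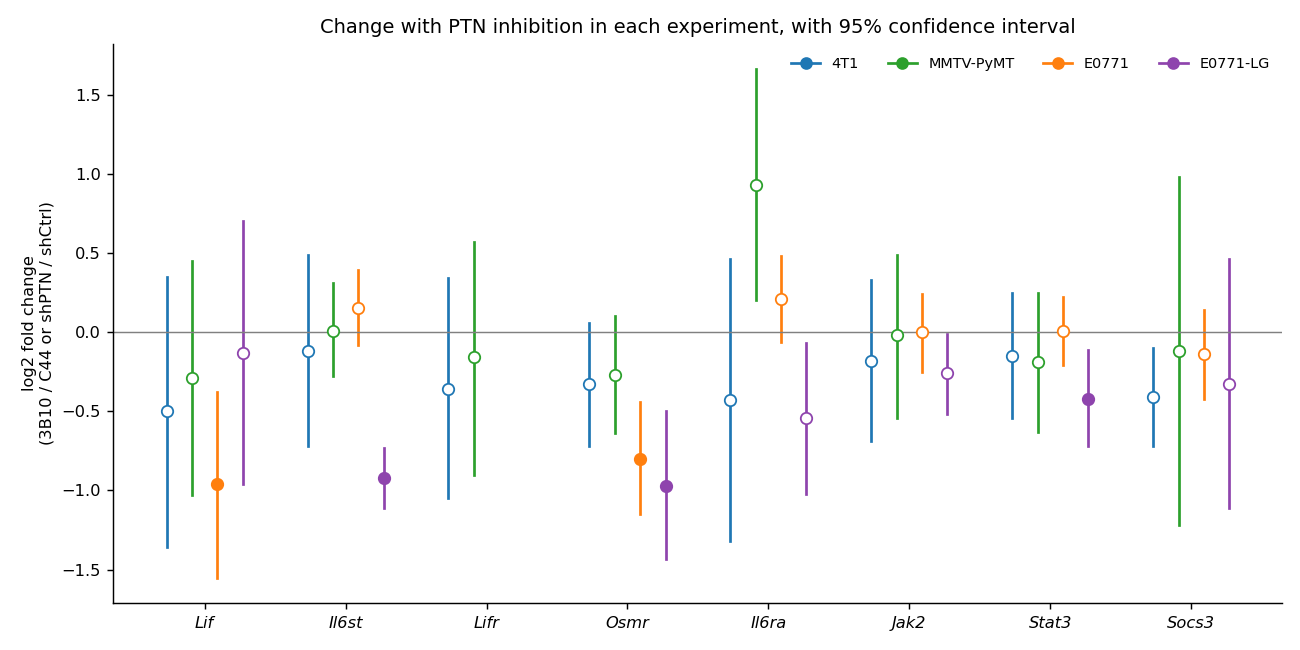
Log2 fold change of each pathway gene with PTN inhibition (vertical axis; 3B10 against C44 or shPTN against shCtrl, 3 samples each) in 4 experiments, shown by color. Circles are limma estimates, lines are 95% confidence intervals, and filled circles have an adjusted p under 0.05, as for Lif and Osmr in E0771 cells and for Il6st, Osmr and Stat3 in E0771-LG cells; Lifr was not tested in the cells.

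Levels of different genes were compared per kb of exon, as log2 CPM minus log2 of the exon length. In E0771shCtrl cells Stat3 was highest with a mean of 4.34 ± 0.17 (SD, n = 3), followed by Jak2 at 3.62, Socs3 at 3.59 and Il6st at 3.44, whose samples overlapped. Lif at 1.37 and Il6ra at 1.34 overlapped as well, Osmr lay below them at 0.31, and Lifr was last at −6.89. In E0771-LGshCtrl cells Il6st was at the top with 4.59 ± 0.06 (SD, n = 3), overlapping Socs3 at 4.49, which overlapped Stat3 at 4.28. Jak2 at 2.91 and Il6ra at 1.43 stood apart from their neighbours, Osmr at 0.54 overlapped Lif at −0.20, and Lifr was again last at −5.34. With shPTN, Il6st stood below Socs3 at 4.17 and Stat3 at 3.86 in E0771-LG cells, at 3.67, overlapping Stat3 but not Jak2 at 2.64. In MMTV-PyMT tumors with C44, Stat3 led at 5.91, and Osmr at 3.68, Jak2 at 3.53, Socs3 at 3.33 and Il6st at 3.23 followed, each overlapping the next. Lif at 2.04 overlapped Lifr at 1.92, and Il6ra was lowest at 0.48. In 4T1 tumors with C44, the deposited values were taken to be per length, and the order of genes rests on that reading. Jak2 at 7.14 overlapped Socs3 at 6.53, which overlapped Stat3 at 6.16. Il6st at 5.44, Osmr at 4.98, Il6ra at 4.96 and Lif at 4.47 formed a chain of overlapping genes below them, and Lifr was lowest at 2.15.

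**Figure D2:**
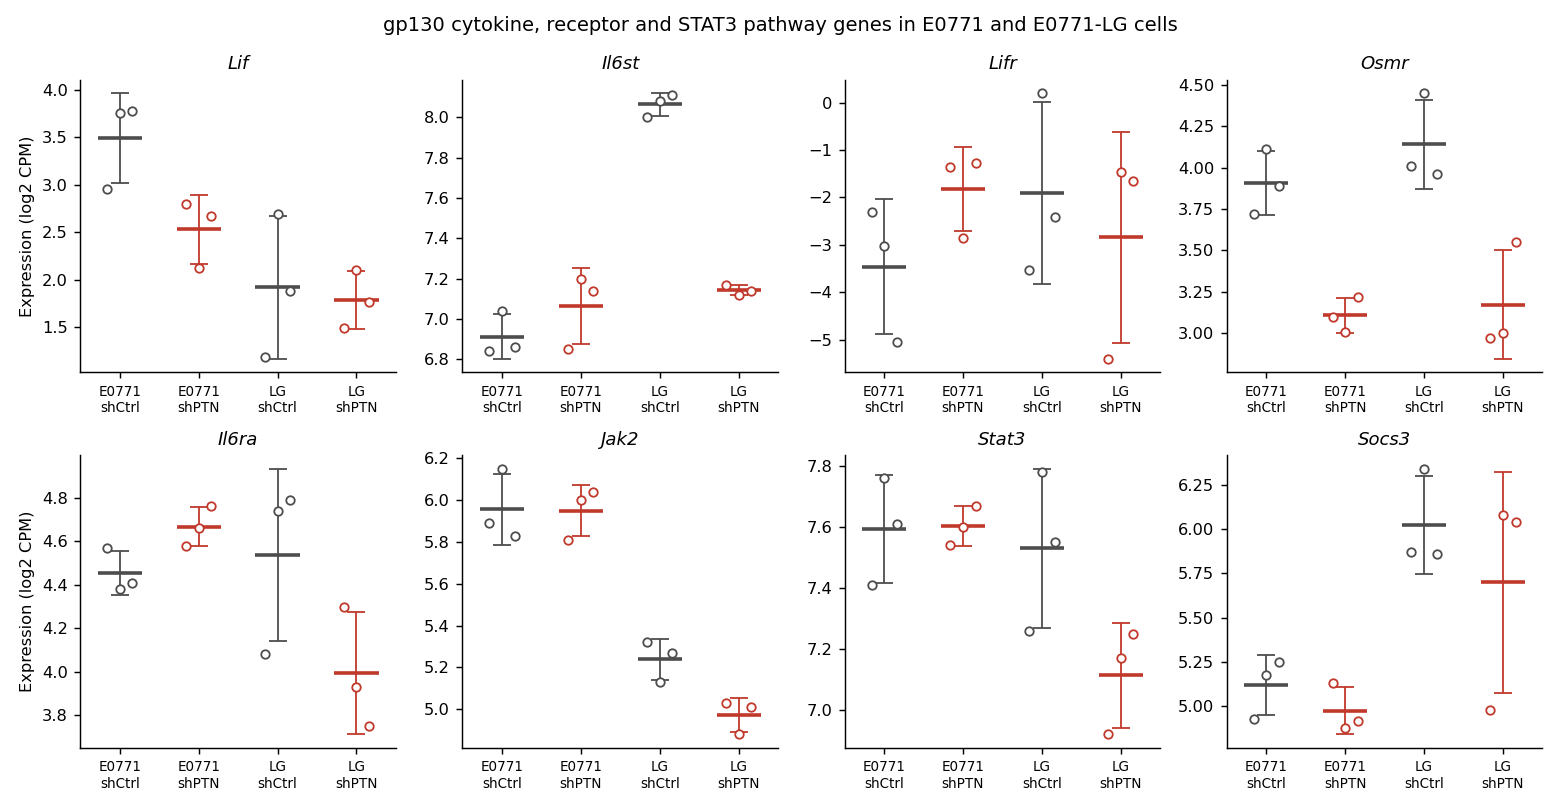
Expression of the 8 pathway genes in log2 CPM (vertical axes) in E0771 and E0771-LG cells with shCtrl (gray) or shPTN (red), 3 samples per group. Circles are samples, thick lines group means and bars 1 SD; Il6st stands at 8.0 to 8.11 in E0771-LGshCtrl and at 7.12 to 7.17 in E0771-LGshPTN, and Lifr rests on 0 to 22 reads per sample.

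Lif (ENSMUSG00000034394, chr11:4257557-4272514, plus strand) encodes leukemia inhibitory factor, the only cytokine among the 8 genes, which signals through LIFR and gp130. In the E0771shCtrl samples it stood at 2.95, 3.75 and 3.78 log2 CPM and in the E0771shPTN samples at 2.80, 2.12 and 2.67. The knockdown samples all lay below the controls, narrowly so for the lowest control, on 133 to 274 reads against 78 to 134. Lif fell by 0.96 log2 (SE 0.26, limma adjusted p = 0.0258) in 3 of 3 samples, which left 51.3% of the control level. The call held in 9 of 15 alternatives. With no filter the adjusted p was 0.0609 and in a joint fit of both lines 0.0713, with the same fold change. Without E0771shCtrl replicate 2 or 3 the adjusted p was 0.111 or 0.113, without E0771shPTN replicate 2 or 3 it was 0.0525 or 0.0616, and over 15 alternatives it lay between 0.00859 and 0.113, always with a lower Lif level. In E0771-LG cells Lif was at 1.19, 2.69 and 1.88 log2 CPM with shCtrl and at 1.49, 2.10 and 1.77 with shPTN. The groups overlapped, on 39 to 126 reads, and the log2 fold change was −0.13 (95% confidence interval −0.96 to 0.70). Without E0771-LGshCtrl replicate 2 it was 0.25, and without E0771-LGshPTN replicate 1 it was 0.02. The effects in the 2 lines differed by 0.83 (SE 0.49, limma adjusted p = 0.202), so the fall in E0771 cells was not shown to be particular to them; without E0771-LGshCtrl replicate 2, the difference was 1.21 (adjusted p = 0.0405). In the tumors, Lif was at 4.67, 5.02 and 3.71 in 4T1 tumors with C44 and at 3.55, 4.46 and 3.89 with 3B10. In MMTV-PyMT tumors it was at 4.35, 4.47 and 3.67 log2 CPM with C44 and at 3.43, 3.76 and 4.43 with 3B10. Both pairs of groups overlapped, with log2 fold changes of −0.50 (SE 0.37) and −0.29 (SE 0.32). The former lay between −0.88 and −0.22 over 14 alternatives, and the latter between −0.57 and −0.07 over 15.

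Il6st (ENSMUSG00000021756, chr13:112464070-112510086, plus strand) encodes gp130 itself. In E0771-LGshCtrl cells it stood at 8.0, 8.08 and 8.11 log2 CPM, on 4437 to 5319 reads, and in E0771-LGshPTN cells at 7.17, 7.12 and 7.14, on 2457 to 3051 reads. Each group was tight, with an SD of 0.06 and 0.03, and the gap between them was wide. Il6st was picked by the study for a heat map drawn from these samples, so its fall here, to 52.8% of the control level, is not independent evidence of a direction. In E0771 cells, which that choice did not use, it was at 6.84, 7.04 and 6.86 log2 CPM with shCtrl and at 6.85, 7.20 and 7.14 with shPTN. These groups overlapped, and the log2 fold change was 0.15 (95% confidence interval −0.08 to 0.39, limma adjusted p = 0.348). The knockdown effect differed between the lines by −1.07 (SE 0.14, limma adjusted p = 7.81e-05), and this difference passed the test in each of 20 alternatives, with values from −1.18 to −0.99. The control cells already differed, with Il6st 2.23-fold higher in E0771-LGshCtrl than in E0771shCtrl, a log2 difference of 1.16 (SE 0.10, limma adjusted p = 1.84e-07). E0771-LGshPTN cells, at a mean of 7.14, lay within the range of the E0771shPTN samples. In the tumors Il6st was at 5.61, 5.79 and 4.91 in 4T1 tumors with C44 and at 4.97, 5.54 and 5.46 with 3B10. In MMTV-PyMT tumors it was at 6.70, 6.80 and 6.61 log2 CPM with C44 and at 6.71, 6.60 and 6.85 with 3B10. The groups overlapped in both models. The log2 fold change in 4T1 tumors was −0.12 (SE 0.26), and 0.06 without C44 replicate 2 and also without 3B10 replicate 1. In MMTV-PyMT tumors it was 0.01, with a 95% confidence interval of −0.28 to 0.31 that does not reach the change of the E0771-LG cells, and −0.04 with median-of-ratios scaling, −0.01 with quantile normalization, −0.03 without C44 replicate 3 and −0.05 without 3B10 replicate 3.

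Lifr (ENSMUSG00000054263, chr15:7090614-7197489, plus strand) encodes the chain that pairs with gp130 to bind LIF. It was all but absent from the cells, with 3, 2 and 0 reads in E0771shCtrl, 7, 2 and 6 in E0771shPTN, 1, 22 and 3 in E0771-LGshCtrl and 0, 6 and 5 in E0771-LGshPTN. A difference between groups was not detectable at this depth, and Lifr was not tested there. MMTV-PyMT tumors held 458 to 1236 reads of it, at 5.09, 4.91 and 6.04 log2 CPM with C44 and 5.43, 5.31 and 4.82 with 3B10. In 4T1 tumors it was at 2.19, 2.10 and 2.17 with C44 and at 1.20, 2.34 and 1.85 with 3B10. The groups overlapped in both models, and the log2 fold changes were −0.16 (SE 0.31) in MMTV-PyMT and −0.36 (SE 0.30) in 4T1 tumors, the former 0.19 without C44 replicate 3 and 0.02 without 3B10 replicate 3. The latter lay between −0.62 and −0.06 over 13 alternatives. In bulk tumors, fewer cells of a type and less RNA per cell cannot be told apart, for this gene and for those that follow.

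Osmr (ENSMUSG00000022146, chr15:6813577-6874969, minus strand) encodes the chain that pairs with gp130 to bind oncostatin M, and it was the member that fell in both lines. It was at 3.72, 4.11 and 3.89 log2 CPM in E0771shCtrl and at 3.10, 3.01 and 3.22 in E0771shPTN, on 227 to 351 reads against 145 to 165. In E0771-LG cells it was at 4.01, 4.45 and 3.96 with shCtrl and at 2.97, 3.00 and 3.55 with shPTN, on 278 to 427 reads against 144 to 203. Within each line the 3 knockdown samples lay below the 3 control samples, as for 22.5% of all genes tested in E0771 cells and 26.7% in E0771-LG cells. The log2 fold change was −0.80 (SE 0.16, limma adjusted p = 0.0066) in the parental line and −0.97 (SE 0.21, limma adjusted p = 0.00377) in the metastatic line, leaving 57.6% and 51.2% of the control levels. Both calls held in each of 15 alternatives. The difference between the lines was −0.17 (95% confidence interval −0.75 to 0.41, limma adjusted p = 0.65). It lay between −0.36 and −0.02 over 20 alternatives and passed in 0 of them. In 4T1 tumors Osmr was at 5.17, 5.10 and 4.69 with C44 and at 4.77, 4.64 and 4.53 with 3B10. In MMTV-PyMT tumors it was at 7.23, 7.55 and 7.06 log2 CPM with C44 and at 7.03, 7.12 and 6.88 with 3B10. The highest 3B10 tumor overlapped the lowest C44 tumor in both models, and log2 fold changes of −0.33 (95% confidence interval −0.72 to 0.06) and −0.27 (−0.64 to 0.10) did not pass the test. The latter lay between −0.38 and −0.13 over 15 alternatives.

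Il6ra (ENSMUSG00000027947, chr3:89864059-89913196, minus strand) encodes the chain that binds interleukin 6 before gp130 joins. In E0771 cells it was at 4.57, 4.38 and 4.41 log2 CPM with shCtrl and at 4.58, 4.66 and 4.76 with shPTN. In E0771-LG cells it was at 4.08, 4.74 and 4.79 with shCtrl and at 4.30, 3.93 and 3.75 with shPTN. The knockdown samples all lay above the controls in E0771 cells, the lowest of them just above the highest control, whereas in E0771-LG cells the lowest control sample lay among the knockdown samples. Neither difference passed the test, with log2 fold changes of 0.21 (SE 0.12, limma adjusted p = 0.246) and −0.54 (SE 0.21, limma adjusted p = 0.0579). The difference between the lines did pass, at −0.76 (SE 0.26, limma adjusted p = 0.0344). It passed in 11 of 20 alternatives, and without replicate 2 or 3 of any of the 4 groups the adjusted p lay between 0.0557 and 0.0915, where 0.0915 was also the highest over all alternatives and 0.00318 the lowest. In MMTV-PyMT tumors Il6ra was at 3.65, 3.25 and 3.86 log2 CPM with C44 and at 4.81, 3.85 and 4.90 with 3B10. Replicates 1 and 3 of 3B10 stood above all C44 tumors and replicate 2 at the level of the highest of them, on 183 to 272 reads with C44 and 266 to 484 with 3B10. The log2 fold change of 0.93 (95% confidence interval 0.20 to 1.66) had a limma adjusted p of 1. In 4T1 tumors Il6ra was at 5.43, 5.31 and 4.13 with C44 and at 4.03, 4.99 and 4.56 with 3B10, with overlapping groups and a log2 fold change of −0.43 (SE 0.38). Over 14 alternatives this fold change lay between −0.84 and −0.18.

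Jak2 (ENSMUSG00000024789, chr19:29251828-29313080, plus strand) encodes a kinase that phosphorylates gp130 and STAT3. In E0771-LG cells it was at 5.32, 5.13 and 5.27 log2 CPM with shCtrl and at 5.03, 4.88 and 5.01 with shPTN, on 684 to 716 reads against 530 to 690. The knockdown samples all lay below the controls, but the log2 fold change of −0.26 (SE 0.12, limma adjusted p = 0.0868) did not pass the test. In E0771 cells the values were 5.89, 6.15 and 5.83 with shCtrl and 5.81, 6.00 and 6.04 with shPTN, which overlapped, with a log2 fold change of −0.00 (95% confidence interval −0.25 to 0.24). It was 0.03 after median-of-ratios or quantile normalization, 0.09 without E0771shCtrl replicate 2 and 0.06 without E0771shPTN replicate 1. In 4T1 tumors Jak2 was at 7.35, 7.46 and 6.61 with C44 and at 7.02, 6.99 and 6.88 with 3B10. In MMTV-PyMT tumors it was at 5.42, 6.28 and 5.89 log2 CPM with C44 and at 5.99, 5.83 and 5.69 with 3B10. In both models the C44 tumors spread wider than the 3B10 tumors and enclosed them. The log2 fold changes were −0.18 (SE 0.22) and −0.02 (SE 0.22), the latter 0.18 without C44 replicate 2 and 0.05 without 3B10 replicate 3. The former lay between −0.45 and −0.02 over 14 alternatives.

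Stat3 (ENSMUSG00000004040, chr11:100885098-100939540, minus strand) encodes the transcription factor that carries the signal to the nucleus. In E0771-LG cells it was at 7.26, 7.78 and 7.55 log2 CPM with shCtrl and at 6.92, 7.17 and 7.25 with shPTN, on 2646 to 4320 reads against 2557 to 2654. The highest knockdown sample lay just under the lowest control sample. Stat3 fell by 0.42 log2 (SE 0.14, limma adjusted p = 0.0311) in 3 of 3 samples, to 74.9% of the control level. The adjusted p was 0.0837 without E0771-LGshCtrl replicate 2 and also without replicate 3, 0.117 without E0771-LGshPTN replicate 1, 0.075 without its replicate 2, 0.0684 with no filter and 0.0876 with quantile normalization, within a range of 0.00202 to 0.117 over 15 alternatives. In E0771 cells Stat3 was at 7.41, 7.76 and 7.61 with shCtrl and at 7.54, 7.60 and 7.67 with shPTN. The knockdown samples lay inside the range of the controls, and the log2 fold change was 0.01 (95% confidence interval −0.21 to 0.22), −0.08 without E0771shCtrl replicate 1 and −0.02 without E0771shPTN replicate 3. The difference between the lines, −0.43 (SE 0.18, limma adjusted p = 0.082), did not pass the test; without E0771-LGshCtrl replicate 1 it was −0.56 (adjusted p = 0.0144). In the tumors Stat3 was at 6.21, 6.45 and 5.83 in 4T1 tumors with C44 and at 6.06, 6.02 and 5.97 with 3B10. In MMTV-PyMT tumors, where it was the most abundant of the 8 genes, it was at 9.18, 9.40 and 8.91 log2 CPM with C44 and at 9.07, 9.13 and 8.71 with 3B10. The groups overlapped, with log2 fold changes of −0.15 (SE 0.17) and −0.19 (SE 0.19). The former lay between −0.31 and 0 over 14 alternatives, and the latter between −0.31 and −0.06 over 15.

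Socs3 (ENSMUSG00000053113, chr11:117966079-117970047, minus strand) encodes the feedback inhibitor of gp130 and is itself a STAT3 target. In 4T1 tumors it was at 6.47, 6.68 and 6.45 with C44 and at 6.23, 6.19 and 5.95 with 3B10. It was the only one of the 8 genes whose 3B10 tumors all lay below the C44 tumors of a model, which held for 4.42% of all genes tested in 4T1 tumors, and 0 of the 8 did so in MMTV-PyMT tumors, where it held for 2.27%. The log2 fold change of −0.41 (95% confidence interval −0.72 to −0.10) had a limma adjusted p of 0.725. In MMTV-PyMT tumors Socs3 was at 4.93, 5.85 and 3.80 log2 CPM with C44 and at 4.79, 4.52 and 4.91 with 3B10. The C44 tumors differed more among themselves, from 260 to 1113 reads, than from the 3B10 tumors, and the log2 fold change of −0.12 (SE 0.47) was 0.38 without C44 replicate 2. In E0771 cells it was at 4.93, 5.18 and 5.25 with shCtrl and at 5.13, 4.88 and 4.92 with shPTN, and in E0771-LG cells at 5.87, 6.34 and 5.86 with shCtrl and at 4.98, 6.08 and 6.04 with shPTN. Replicate 1 of E0771-LGshPTN stood apart from the other replicates, which lay inside the control range. The log2 fold changes were −0.14 (SE 0.13) and −0.33 (SE 0.32), and without that replicate the latter was 0.03. The difference between the lines, −0.19 (SE 0.35), was 0.17 without it.

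**Figure D3:**
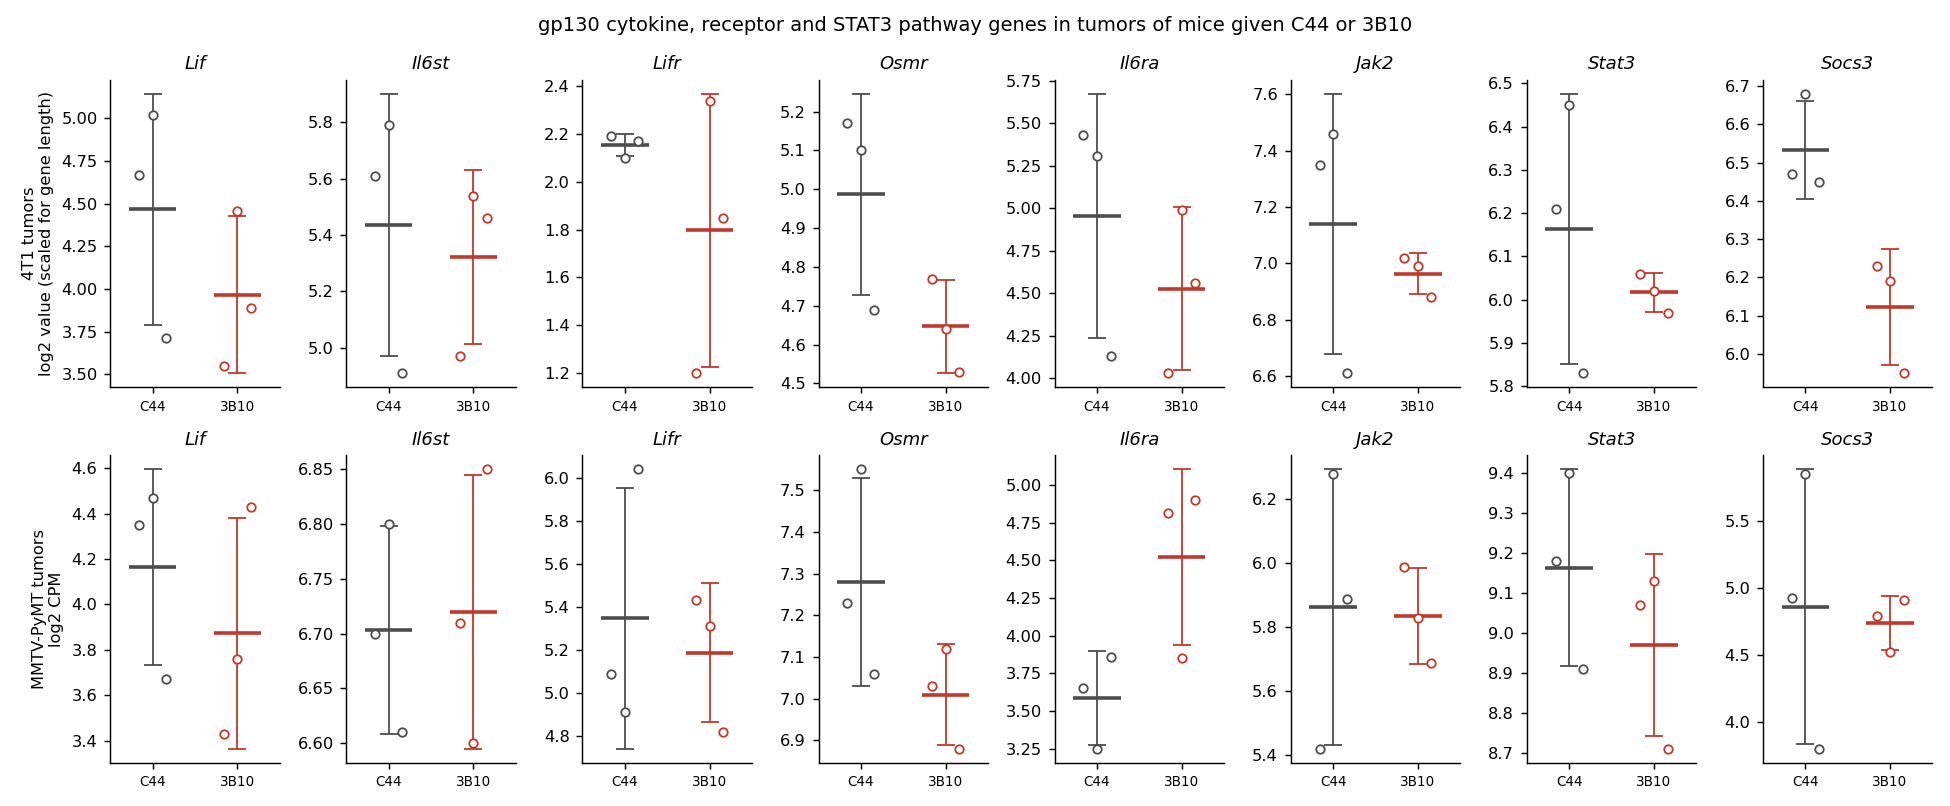
Levels of the 8 pathway genes (vertical axes) in 4T1 tumors (upper panels, log2 values that looked scaled for gene length) and MMTV-PyMT tumors (lower panels, log2 CPM) of mice given C44 (gray) or 3B10 (red), 3 tumors per group. Circles are tumors, thick lines group means and bars 1 SD; Socs3 in 4T1 tumors is the single panel without overlap, at 6.45 to 6.68 with C44 and 5.95 to 6.23 with 3B10.

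STAT dimers bind a palindrome, TTCNNNGAA, and RefSeq promoters of GRCm38.p6 from 250 bases before to 50 bases after the start were searched for it; as a palindrome it reads the same on both strands. Of 32851 promoters, 2726 (8.3%) held a match. The 8 genes have 9 promoters in that table, with 2 for Lifr, and 1 of the 9, that of Socs3, held a match, whose first base lies 154 bases before the start. The 250 bases before the start are shown for Socs3, as the gene with the match, and for Il6st, as the gene of the 7 tested whose knockdown effect differed most between the lines, both chosen after values and matches had been seen. The stretches are chr11:117969367-117969616 on the minus strand for Socs3, within its annotated gene span and across an exon of a noncoding Socs3 transcript (117969375 to 117969451), and chr13:112463820-112464069 on the plus strand for Il6st, which overlaps no annotated gene. Capitals mark the match, and a match is a description of the letters, not a binding site.
Socs3: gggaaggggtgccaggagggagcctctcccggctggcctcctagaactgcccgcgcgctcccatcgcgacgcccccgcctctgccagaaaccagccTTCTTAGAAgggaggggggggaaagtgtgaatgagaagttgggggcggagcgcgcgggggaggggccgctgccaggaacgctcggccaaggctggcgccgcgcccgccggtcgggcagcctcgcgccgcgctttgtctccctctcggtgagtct
Il6st: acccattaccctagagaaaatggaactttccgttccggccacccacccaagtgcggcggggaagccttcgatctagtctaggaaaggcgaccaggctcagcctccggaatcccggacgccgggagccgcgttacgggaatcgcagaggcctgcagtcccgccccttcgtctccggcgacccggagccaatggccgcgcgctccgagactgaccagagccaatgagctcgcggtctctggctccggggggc

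Before any knockdown, the metastatic and the parental line differed in 4 of the 7 pathway genes tested, 2 lower and 2 higher in E0771-LGshCtrl, where 37.5% of the 10223 genes tested were lower and 20.1% higher. This comparison shares its samples with both knockdown comparisons. The median log2 difference over all genes was −0.15, which median-of-ratios scaling moved to −0.008, with 34.8% of the genes that passed higher as deposited and 49.1% after that scaling; the 4 pathway genes passed with either. Besides Il6st, Socs3 was 1.88-fold higher in E0771-LGshCtrl, a log2 difference of 0.91 (SE 0.25, limma adjusted p = 0.00781). Lif was at 33.7% of the E0771shCtrl level, a log2 difference of −1.57 (SE 0.35, limma adjusted p = 0.00141) that lay between −1.96, without E0771-LGshCtrl replicate 2, and −0.98, with quantile normalization, over 19 alternatives. Jak2 was at 60.9% (−0.72, SE 0.11, limma adjusted p = 7.36e-05). The samples of these 4 genes did not overlap between the control groups of the lines, but the share of all genes for which this held was not counted. Osmr, Il6ra and Stat3 differed by 0.23 (SE 0.19), 0.08 (SE 0.18) and −0.06 (SE 0.13), which did not pass the test. The Osmr difference passed under 1 of 20 alternatives, quantile normalization, at 0.58 (adjusted p = 0.0103, within a range of 0.0103 to 0.756). The Stat3 difference was 0.08 after median-of-ratios scaling, 0.02 without E0771shCtrl replicate 2 and 0.07 without E0771-LGshCtrl replicate 1, and that of Il6ra was −0.02 or −0.04 without E0771-LGshCtrl replicate 2 or 3. Thus E0771-LG control cells had more transcript of the shared receptor and of the inhibitor, and less of the ligand Lif and the kinase. The knockdown effect itself differed between the lines for 2 of 7 genes, Il6st and Il6ra, both lower in E0771-LG cells, where 16% of 10223 genes tested differed in that direction, and 18.8% in the other.

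Other genes of the pathway were taken from lists of names, which were also chosen with earlier results of these data known. The list of gp130 family cytokines holds 10 names, of which Il6, Il11, Cntf and Il27 were not analysed here. Beside the counts of lists that follow, 11.7% of all genes tested fell and 8.89% rose in E0771 cells, and 22.1% fell and 24.3% rose in E0771-LG cells. In E0771 cells 2 of 5 tested fell, Lif and Osm (oncostatin M, −0.75, limma adjusted p = 0.0433), and 0 rose, with a median of −0.16 against −0.03 for all genes. In E0771-LG cells 0 of 5 fell and 3 rose, among them Clcf1 (a ligand of the CNTF receptor) by 0.87 (SE 0.15, limma adjusted p = 0.00104) and Osm by 0.54 (SE 0.20, adjusted p = 0.0426), with a median of 0.54 against 0.05. Osm thus went down in the parental and up in the metastatic line, and the difference of its effects, 1.29 (SE 0.32), had a limma adjusted p of 0.00686. The counts depend on the samples, since 0 cytokine genes fell in E0771 cells without replicate 2 or 3 of E0771shCtrl or of E0771shPTN, and 1 without E0771shPTN replicate 1, and they numbered 0 with no filter and 1 in the joint fit. Of the 7 receptor genes listed, Cntfr and Il27ra were not analysed here. Beside the 4 receptor genes above, the list adds Il11ra1, the interleukin 11 receptor, which was lower in E0771-LGshCtrl than in E0771shCtrl (−1.09, limma adjusted p = 0.000131) and did not pass in either knockdown comparison. As a whole, 1 of 4 receptor genes tested fell in E0771 cells (median 0.07) and 2 of 4 in E0771-LG cells (median −0.73), with 0 higher in either line.

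Of the kinases and transcription factors, 10 of 11 listed JAK and STAT genes were tested. Over all genes tested, the shares that fell and rose were 11.7% and 8.89% in the parental line and 22.1% and 24.3% in the metastatic line. In E0771 cells 3 fell, among them Stat2 (−0.62, limma adjusted p = 0.0113) and Jak3 (−0.49, adjusted p = 0.0214), and Stat6 rose (0.57, adjusted p = 0.0109), with a list median of −0.07. In E0771-LG cells 4 fell, Jak1 (−0.53), Stat5b (−0.47), Stat3 (−0.42) and Stat6 (−0.27), 0 rose, and the median was −0.17. STAT2 carries interferon signals, whereas JAK1, like JAK2, binds gp130. Of the 16 listed inhibitors of the pathway, 14 were tested. In E0771 cells Socs6 (−0.74) and the phosphatase gene Ptpn11 (−0.31) fell and Ptpn6 (0.99) rose, with a median of −0.13. In E0771-LG cells 5 fell, led by Ptpn11 (−1.01, limma adjusted p = 6.95e-05), Socs6 (−0.92) and Socs7 (−0.81), and 2 rose, among them Pias4 (0.77), with a median of −0.09. Ptpn11 encodes SHP2, which docks on gp130 at the site that SOCS3 also uses. Among the 9 tested genes for gp130 shedding and trafficking, 2 fell in E0771 cells, Rhbdf2 (−0.74) and Erbin (−0.48), and 0 rose (median −0.04). In E0771-LG cells 4 fell, among them Cbl (−0.81), a ubiquitin ligase, and Adam10 (−0.44), a protease that sheds receptors, and 3 rose (median −0.11). These counts, too, changed with libraries and settings. In the joint fit of both lines 0 JAK or STAT genes were lower in E0771 cells and 1 was higher in E0771-LG cells, with quantile normalization 2 were lower in E0771-LG cells, and with no filter 1 shedding gene was lower in E0771 cells and 1 inhibitor gene higher in E0771-LG cells. In E0771 cells, without replicate 2 of E0771shCtrl, 1 JAK or STAT gene, 1 inhibitor gene and 0 shedding genes were lower and 0 JAK or STAT genes higher, without its replicate 3 each of the lists had 1 lower gene, and without E0771shPTN replicate 3 so did the first and second list, while 2 inhibitor genes were higher without E0771shPTN replicate 2. In E0771-LG cells 2 JAK or STAT genes were lower without E0771-LGshCtrl replicate 2 or 3 or E0771-LGshPTN replicate 2, and 2 or 1 were higher without E0771-LGshCtrl replicate 2 or E0771-LGshPTN replicate 1. Of the inhibitor genes, 1 was higher without E0771-LGshCtrl replicate 3 or E0771-LGshPTN replicate 2 or 3, where 1, 0 and 1 shedding genes were higher.

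The STAT3 response list holds 30 genes known to be induced by STAT3 in various cells, many of which other factors induce too. In E0771 cells 6 of 27 tested fell and 2 rose, where 11.7% of all genes tested fell and 8.89% rose, with a median of −0.19 against −0.03. The largest changes were in Lcn2, from 2.70 ± 1.29 to 0.66 ± 0.13 log2 CPM (SD, n = 3), Gadd45b, from 1.70 ± 0.40 to 3.32 ± 0.14, Klf4, from 4.94 ± 0.10 to 3.90 ± 0.14, and Junb, from 6.77 ± 0.49 to 5.97 ± 0.17. In E0771-LG cells 6 of 27 fell and 4 rose, where 22.1% of all genes tested fell and 24.3% rose, with a median of −0.04 against 0.05. The largest changes were in Fgl2 (5.04), Ptgs2 (−2.43), Saa3 (−1.86) and Pim1 (1.39). Fgl2 was close to 0 reads in E0771-LGshCtrl, at −5.11 to −1.59 log2 CPM against 1.70 to 2.36 with shPTN, so it met the filter on low values only through the shPTN samples, and the size of its change depends on the offset of the values. Junb fell in E0771 and rose in E0771-LG cells (0.59, limma adjusted p = 0.0253), and the difference was 1.40 (SE 0.33, limma adjusted p = 0.0083). Pim1, a kinase gene, likewise fell in E0771 cells (−0.68, limma adjusted p = 0.0429) and rose in E0771-LG cells (adjusted p = 0.0333), with a difference of 2.08 (SE 0.52, adjusted p = 0.00985). Single libraries moved these counts. Lower genes of the list in E0771 cells numbered 3 with no filter, 2 without E0771shCtrl replicate 2 and without E0771shPTN replicate 3, and 3 without E0771shCtrl replicate 3 and without E0771shPTN replicate 2. Higher genes in E0771-LG cells numbered 7 without E0771-LGshCtrl replicate 2, 2 without E0771-LGshCtrl replicate 3, and 1 without E0771-LGshPTN replicate 2 or 3. In E0771-LGshCtrl against E0771shCtrl cells, 13 of 26 of these genes were higher and 5 lower, where 20.1% of all genes tested were higher and 37.5% lower, with a median of 0.44 against −0.15. In the tumors 0 genes of any of the 6 pathway lists passed the limma test. At an unadjusted p under 0.05 there were 2 of 30 STAT3 response genes, 1 of 6 cytokine genes, 1 of 16 inhibitor genes (Socs3) and 1 of 9 shedding genes in 4T1 tumors, where 3.10% of all genes tested were lower and 3.17% higher at that p. In MMTV-PyMT tumors there were 3 of 30 STAT3 response genes, 1 of 5 receptor genes (Il6ra) and 1 of 16 inhibitor genes, beside 1.18% lower and 1.52% higher.

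**Figure D4:**
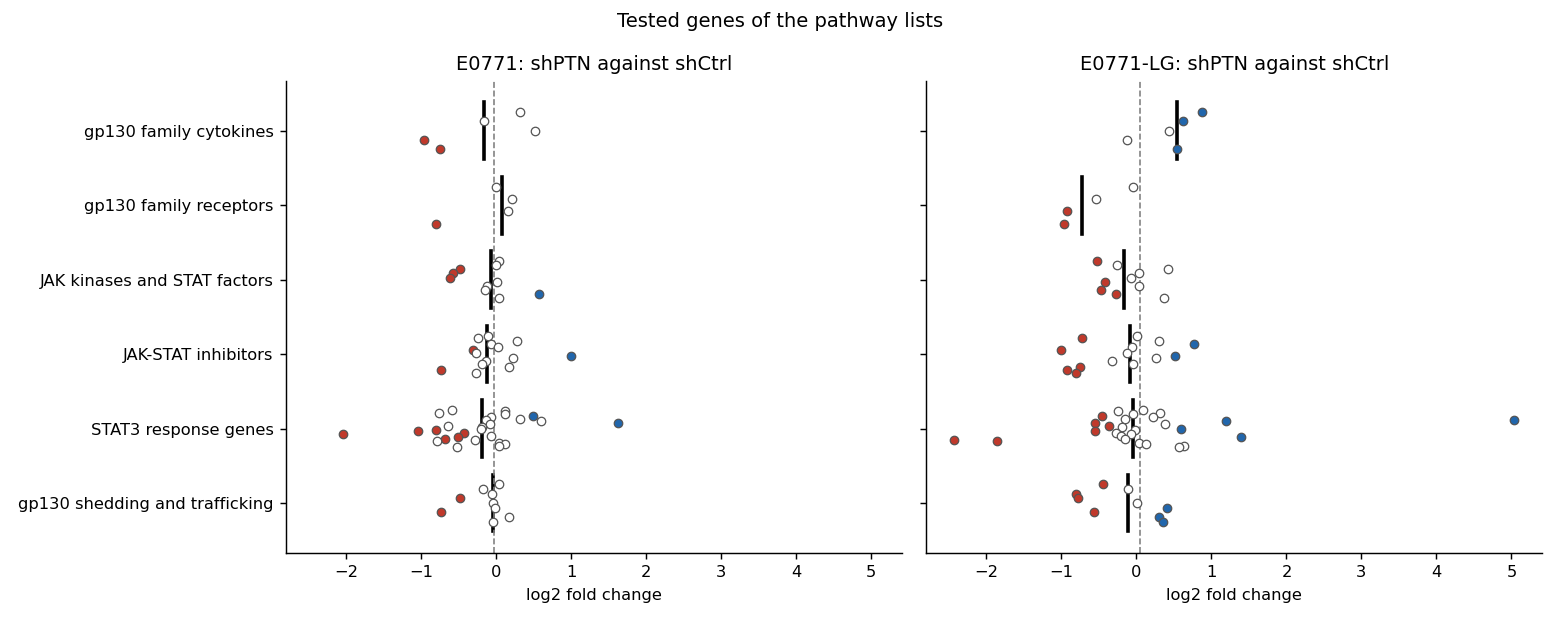
Log2 fold change with shPTN (horizontal axes) of the tested genes of 6 pathway lists in E0771 (left) and E0771-LG cells (right). Circles are genes, filled where the adjusted p was under 0.05 (red lower, blue higher), black bars are list medians and dashed lines the median of all genes tested; the cytokine median is −0.16 on the left and 0.54 on the right, and the receptor median 0.07 and −0.73.

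In order of likeness over the 12 cell samples, each gene centred on its own mean, the genes closest to Il6st were Atp2a2 (root mean square distance 0.134 log2), Galnt7 (0.137), Tnpo1 (0.137), Ets1 (0.137) and Usp36 (0.148), where the median distance of 10223 genes was 0.606. Ets1, for example, was at 8.35 ± 0.09 log2 CPM in E0771shCtrl, 8.40 ± 0.18 in E0771shPTN, 9.22 ± 0.07 in E0771-LGshCtrl and 8.56 ± 0.11 in E0771-LGshPTN (SD, n = 3 each). Closest to Stat3 were Efcab14 (0.106), Adam10 (0.108), Lpin2 (0.110), Wdr11 (0.115) and Ubr2 (0.115), with a median distance of 0.409. Adam10, which is also among the shedding genes, was at 7.77, 7.80, 7.67 and 7.23 log2 CPM in the same order of groups. These genes were picked for their likeness, which gets no test.

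In 4T1 tumors no marker of another cell type and none of the 8 genes passed the limma test, and marker levels are given beside them. The 10 leukocyte markers were all lower on average with 3B10, 6 of them at an unadjusted p under 0.05, where 3.10% of all genes tested were lower and 3.17% higher at that p, with a median of −0.42 and 0 past the limma adjusted threshold. Their summed level, led by Tyrobp, was 2690, 2500 and 2660 with C44 and 2010, 2180 and 1670 with 3B10, so all 3B10 tumors were lower, as for Socs3. Epithelial markers went the other way, with sums of 3550, 3990 and 3960 against 5490, 5420 and 5570, led by Krt18, and 10 of 10 tested above 0, 6 of them at an unadjusted p under 0.05 (median 0.58). Skeletal muscle markers had sums of 32.4, 28.8 and 60.7, led by Tnni2, with C44 and of 76.3, 213 and 350 with 3B10, with 5 of 5 tested at an unadjusted p under 0.05 (median 2.73) and 0 past the adjusted threshold. Of these 5, Actn3 met the filter on low values only through the 3B10 tumors, at 1.01 to 3.83 against −0.56 to −0.16 with C44. Acta1 (−0.53 to 1.23 with C44, 3.49 to 6.25 with 3B10) and Mylpf (0.59 to 1.89 and 2.94 to 4.95) also needed 3B10 tumors to meet it. Macrophage markers, led by C1qa, summed to 4550, 4460 and 4960 against 3080, 4460 and 2850, neutrophil markers, led by S100a9 or S100a8, to 1190, 1110 and 1940 against 1200, 779 and 610, and T and NK cell markers to 152, 170 and 154 against 132, 79 and 36.1, with medians of −0.46, −0.66 and −1.27 and 3 of 9, 4 of 7 and 5 of 7 at an unadjusted p under 0.05. Endothelial, fibroblast and adipocyte medians were −0.16, 0.26 and 0.51, and no marker was at 0 in every tumor. C44 replicate 3 was the lowest C44 tumor for 7 of the 8 pathway genes, and it had the highest neutrophil and macrophage sums. The part of these cells in the values of Socs3 and the other genes was not tested.

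In MMTV-PyMT tumors the adipocyte markers, led by Lpl or Fabp4, summed to 27.4, 34.8 and 16.4 with C44 and to 97.8, 35.6 and 38.4 with 3B10, and all 3 of the markers tested were higher (median 1.13), with 0 past the adjusted threshold. Il6ra was highest in 3B10 replicates 3 and 1, which had the largest adipocyte sums. The sum of 3B10 replicate 3 was, however, close to those of 3B10 replicate 2 (35.6) and C44 replicate 2 (34.8). Il6ra was at 4.90 log2 CPM in the first of these tumors, 3.85 in the second and 3.25 in the third. The sums rest on 3 of the 10 listed adipocyte markers, and the part of adipocytes in the Il6ra values was not tested. The other lists had medians between −0.52, for skeletal muscle, and 0.03, for endothelial markers. C44 replicate 2, with the largest fibroblast sum (3460, led by Col1a1) and macrophage sum (1230), was the highest C44 tumor for 6 of the 8 pathway genes, and C44 replicate 3, with the smallest sums (1210 and 637), was the lowest for 5. The part of these cells was not tested.

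In the cells the markers check what the cultures hold. Counts of markers that passed stand beside 11.7% lower and 8.89% higher of all genes tested in the parental line, and 22.1% and 24.3% in the metastatic line. Of 12 mammary epithelial markers, 9 were under 1 CPM in every E0771 sample, among them Krt18, Cdh1, Krt5 and Krt14, and 8 in every E0771-LG sample, while Krt8 was abundant in both lines. Of 10 leukocyte markers, Ptprc, Cd53, Tyrobp, Fcer1g and Cd52 were under 1 CPM in every sample of both lines, and so were C1qa, C1qb, C1qc, Adgre1 and Csf1r among the macrophage markers and S100a9 among the neutrophil markers. T and NK cell markers were under 1 CPM in every E0771 sample, as were 5 of 7 in every E0771-LG sample. Other leukocyte markers were present, with Itgb2, Coro1a or Lcp1 the most abundant in E0771 samples and Laptm5 (6.41 log2 CPM in E0771-LGshCtrl) or Lcp1 (7.19 in E0771-LGshPTN) in E0771-LG samples, and with sums of 40.1, 46.6 and 40 CPM in E0771shCtrl, 92.2, 77.4 and 83.8 in E0771shPTN, 194, 203 and 185 in E0771-LGshCtrl and 208, 243 and 263 in E0771-LGshPTN, and with the knockdown 4 of 5 tested were higher in E0771 cells, and 1 of 4 lower and 1 higher in E0771-LG cells. Fibroblast markers rose with shPTN in E0771 cells, 5 of 5 tested, from sums of 74.8, 101 and 86.6, led by Pdgfra, to 331, 294 and 331, led by Col3a1. In E0771-LG cells 2 of 6 fell and 1 rose, from sums of 92.2, 145 and 107 to 58.3, 66.9 and 73.7, led by Pdgfra. Of the 2 that fell, Col1a1 met the filter only through the shCtrl samples, at 3.24 to 3.51 log2 CPM against −2.37 to −0.73 with shPTN. Epithelial markers rose in E0771-LG cells, 3 of 3 tested, from 158, 204 and 164 to 426, 566 and 517, led by Krt8, though Krt18 met the filter only through the shPTN samples. The part of such shifts in the values of Osmr and the other pathway genes was not tested. Endothelial sums, led by Egfl7, were 36.3, 35.2 and 42.7 in E0771shCtrl and 51.7, 37.4 and 44.3 in E0771shPTN, and 11.3, 16.7 and 11.3 in E0771-LGshCtrl and 27.6, 34.3 and 28.9 in E0771-LGshPTN. Of the endothelial markers 1 of 3 tested was higher in E0771 cells and 2 of 4 in E0771-LG cells. Of the macrophage markers 0 of 2 passed the limma test in E0771 cells, with 2 at an unadjusted p under 0.05, and in E0771-LG cells 2 of 3 were lower and 1 higher, with sums of 22.4 to 24.1 CPM, led by Cd14, against 12.5 to 16.9. T and NK cell markers in E0771-LG cells had sums of 0.484 to 1.28 CPM with shCtrl and 1.47 to 3.21 with shPTN, and the single marker tested, higher with shPTN, met the filter only through the shPTN samples. The single adipocyte marker tested in E0771-LG cells, Fabp4, was lower, with adipocyte sums of 11 to 18.3 against 1.18 to 4.32. Of 2 skeletal muscle markers tested, 1 was higher in E0771 cells, with sums of 5.39 to 7.2 against 13.5 to 15.1, and 1 was lower in E0771-LG cells. The single neutrophil marker tested did not pass in either line, nor did the adipocyte marker and the 2 epithelial markers tested in E0771 cells.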

How the data were processed

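Bulk RNA sequencing values of 24 samples were analysed in 4 experiments of 3 control and 3 inhibited samples. The authors aligned reads to GRCm38 with HISAT2, counted them with featureCounts and normalized them with edgeR and limma, whose versions are not given, and deposited log2 values. In 18 samples these were log2 CPM with an offset of 0.5 reads (values within 0.02 of a whole read). Those of the 4T1 tumors looked scaled for gene length, from the slope of their difference from E0771-LG values against exon length (−0.693, where MMTV-PyMT had 0.114 and E0771 0.158). The test was run on the deposited log2 values, for which limma was used and not edgeR, which takes counts.

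In each experiment, genes whose linear value exceeded the lowest of the sample by at least 1 in at least 3 of 6 samples were tested with limma 3.58.1 in R 4.3.3 (empirical Bayes with trend and robust settings), and p was adjusted by Benjamini-Hochberg over all genes tested. The difference of the knockdown effects and of the control cells came from fits of all 12 cell samples. The scripts were tested on simulated data. Exact permutation tests were two-sided. Positions are from GENCODE M21. Depth was 15.63 to 21.12 M reads and is unknown for 4T1.

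The 8 genes and the lists of pathway and marker genes were chosen with earlier results of these data known. Named genes were the 8 genes and Ptn, at most 4 genes per pathway list and comparison with the largest change among those that passed, the most abundant gene of each marker list, and the 5 genes closest to Il6st and to Stat3; genes named outside this rule were chosen after their values were seen. Alternatives were no filter, a stricter filter (5), limma without robust settings, a pseudocount of 1, quantile normalization, median-of-ratios scaling, weights by voom from recovered reads, a joint fit of both experiments of a kind, a block for the replicate number, and leaving out each replicate. Counts of pathway lists under these alternatives were added after seeing the data.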

Additional observations from a re-analysis of the deposited data

Results flagged for a closer look

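The effect of PTN knockdown differed between the E0771 and E0771-LG lines for 2 of the 7 genes tested, as an interaction term in a limma fit of the 12 cell samples, where 16% of 10223 genes differed in the same direction. For Il6st the difference was −1.07 (SE 0.14, limma adjusted p = 7.81e-05), from a log2 fold change of 0.15 in E0771 cells and −0.92 in E0771-LG cells. The study had picked Il6st from the same E0771-LG samples, so this difference, which rests on the fall there, is not independent evidence, whatever number of alternatives it passes in. For Il6ra it was −0.76 (SE 0.26, limma adjusted p = 0.0344), from 0.21 and −0.54, neither of which passed the test by itself. The Il6st difference passed the test in 20 of 20 alternatives and the Il6ra difference in 11 of 20, with adjusted p between 0.00318 and 0.0915. The cause of either difference was not tested. No outlier test was run, since groups of 3 samples are too small for it.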

How the results depend on the processing

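Of 99 counts of pathway genes past the threshold under alternatives, 86 stayed within 1.5 times the reported count. The count was 0 for 4T1 and MMTV-PyMT tumors in each of 14 and 15 alternatives. In E0771 cells it was 2 and became 1 with no filter and 1 with a joint fit of both lines, and 1 to 2 when a replicate was left out. For the difference of the knockdown effects it was 2, and 1 to 3 when a replicate was left out. It was 1 without replicate 2 or 3 of E0771shCtrl or E0771shPTN in both cases, and for the difference also without E0771-LGshCtrl replicate 3 and E0771-LGshPTN replicate 2 or 3.

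Of 718 values of single genes under alternatives, 662 kept their direction and their side of the threshold, 21 were no longer past it, 9 passed it newly and 26 changed sign, none of the last past the threshold. Median-of-ratios and quantile scaling turned the log2 fold change of Il6st in MMTV-PyMT tumors to −0.04 and −0.01 and that of Jak2 in E0771 cells to 0.03 and 0.03, and median-of-ratios scaling turned the Stat3 difference between the control cells to 0.08. When a replicate was left out, the log2 fold change of Il6st lay between −0.38 and 0.06 in 4T1 tumors and between −0.05 and 0.07 in MMTV-PyMT tumors, where Lifr lay between −0.38 and 0.19, Socs3 between −0.65 and 0.38 and Jak2 between −0.25 and 0.18. In E0771 cells Stat3 lay between −0.08 and 0.09 and Jak2 between −0.07 and 0.09, and in E0771-LG cells Lif lay between −0.50 and 0.25 and Socs3 between −0.52 and 0.03. The difference of the knockdown effects of Socs3 lay between −0.38 and 0.17, and the differences between the control cells between −0.04 and 0.31 for Il6ra and between −0.19 and 0.07 for Stat3. The cause was not tested.

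Il6st in E0771-LG cells, Osmr in both lines and the Il6st difference between the knockdown effects passed the test under every alternative run for them. Il6ra in E0771-LG cells passed in 5 of 15, with an adjusted p of 0.0427 after median-of-ratios and 0.017 after quantile scaling, 0.0223 in the joint fit, 0.00388 without E0771-LGshCtrl replicate 1 and 0.0343 without E0771-LGshPTN replicate 1, within a range of 0.00388 to 0.196. Of 1188 counts of pathway lists under the same alternatives, chosen after seeing the data, 1097 stayed within 1.5 times the reported count.

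Samples share only a replicate number, since deviations of same-numbered samples correlated between −0.327 and 0.436 across experiments, and not every sample correlated best with its own number. In a fit with a block for the replicate number, counts of genes past the threshold were 0 in both tumor models, 2 in E0771, 3 in E0771-LG, 2 for the difference of the knockdown effects and 4 between the control cells, as without it; in the difference, Stat3 passed (adjusted p = 0.0265) and Il6ra did not (0.0663).

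Weights from recovered reads could not be run for 4T1 tumors, which have no reads. Depth limits Lifr, with 0 to 22 reads per cell sample, Ptn in knockdown cells, with 12 to 56, and Lif in E0771-LG cells, with 39 to 126. With the filter removed, the log2 fold change of Lifr was 1.63 in the parental line (adjusted p = 0.199) and −0.93 in the metastatic line (adjusted p = 0.629). Lif between the control cells had no value under the stricter filter.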

Other observations

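Some replicates held the lowest or highest value of their group for several genes. Every gene has a lowest and a highest sample in each group, and shares over all genes were not counted. The counts therefore mark no sample as unusual. Of the 8 genes, C44 replicate 3 of the 4T1 tumors had the lowest value of its group for 7, and C44 replicate 2 the highest for 5. Among the MMTV-PyMT tumors, C44 replicate 2 had the highest value of its group for 6 and C44 replicate 3 the lowest for 5. In the cells, E0771shCtrl replicate 1 had the lowest value of its group for 5 of 7 genes, Lifr left out, and replicate 1 of E0771shPTN, of E0771-LGshCtrl and of E0771-LGshPTN for 4 each.

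Among the inhibitor genes, the knockdown effects differed between the lines for 5 of 14, where 16% of all genes tested had lower and 18.8% higher differences, with lower differences for Socs5 (−0.93), Ptpn11 (−0.70) and 2 more, and a higher one for Pias4 (0.85). Among the JAK and STAT genes they differed for 3 of 10, Stat6 (−0.83), Jak1 (−0.57) and Jak3 (0.90). Control cells of the lines differed for 6 of 10 JAK and STAT genes, 5 of them lower in E0771-LGshCtrl, among them Stat2 (−1.40), with a median of −0.37 against −0.15 for all genes, of which 37.5% were lower and 20.1% higher.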
